A study of Mus musculus with 6 samples.

Results

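The 10 elastic fibre and crosslinking genes examined here were Eln, Fbn1, Fbn2, Lox, Loxl1, Loxl2, Fbln5, Efemp2, Mfap4 and Emilin1. All 10 were found among 21883 protein-coding genes of the RefSeq gene table. A window was drawn over each gene body and 10 kb either side, and every peak overlapping a window was taken from all 6 peak lists. Peaks of the 6 lists that touched were merged into regions, which gave 67 regions in the 10 windows of 79295 regions in the whole series.

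Elastic fibres are the stretchable part of the arterial wall and are laid down mainly by smooth muscle cells. Elastin forms the core of the fibre and is deposited on a scaffold of fibrillin microfibrils, with fibulins guiding the assembly and copper-dependent lysyl oxidases crosslinking the elastin. Loss of several of these genes leads to aortic aneurysm in people or mice.

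The measurements are CUT&Tag profiles for Arid3a, a DNA-binding protein with an AT-rich interaction domain, in primary mouse vascular smooth muscle cells. In CUT&Tag a tethered transposase tags DNA near the antibody's target, and the tagged fragments are sequenced. The negative control group (NC) had 3 libraries of cells given a control siRNA. The siRNA group had 3 libraries of cells given siRNA against Arid3a, labelled 1, 2 and 3. The labels do not say whether these numbers mark different siRNAs or replicates of one. If they mark different siRNAs, each has 1 library. Transfection lasted 24 h and each assay used 10000 cells. Angiotensin II exposure for 36 h, a model of aneurysm, is named in the labels without saying which libraries had it. Nor is it said whether libraries came from separate cultures, so the p-values reflect library-to-library spread that may be only technical. The knockdown was not checked here, since peaks give no Arid3a transcript level.

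The lists held 43834 to 51682 peaks. Inside every list the peak names carry the other group's name with the same number, so directions below, which are taken from the labels, hold only if those are correct and are opposite if the names are. This holds for all 6 libraries, so no result could be given without the affected ones. Total reads were not used here. The local background solved from the lists was 0.621 to 0.673 fragments per base in the NC libraries and 0.475 to 0.538 in the siRNA libraries, so coverage and group cannot be told apart. A control without the antibody was not analysed here, so a peak is not shown to be Arid3a binding. A gene-end peak (within 1 kb of either end) was present in all 6 libraries at the smooth muscle genes Acta2, Tagln and Smtn, in 3 NC and 1 siRNA library at both Cnn1 and Myocd, and in none at Myh11. None of the endothelial markers Pecam1, Cdh5, Tie1 and Vwf had one. Among other markers Cd68 had one in 6 libraries, Col14a1 in 2 NC and 0 siRNA libraries, and Ptprc, Adgre1, Cd3e, Pdgfra and Dpt in none. Peaks do not measure transcripts.

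Upstream sequence from RefSeq (GRCm38.p6, the assembly of mm10) could be set beside the peaks at the starts of Fbn1, Fbln5 and Efemp2, and is shown because a region present in all 6 libraries held these starts and the sequence before them lies outside the annotated gene. Each line gives positions -250 to -51 from a RefSeq transcription start, 5′ to 3′, with a match to the GC box GGGCGG on either strand (read as CCGCCC on the other) in capitals.
Fbn1 chr2:125506489-125506688, minus strand: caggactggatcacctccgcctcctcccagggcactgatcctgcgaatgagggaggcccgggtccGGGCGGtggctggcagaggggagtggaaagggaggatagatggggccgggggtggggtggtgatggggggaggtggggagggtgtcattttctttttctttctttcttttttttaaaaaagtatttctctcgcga
Fbln5 chr12:101819170-101819369, minus strand: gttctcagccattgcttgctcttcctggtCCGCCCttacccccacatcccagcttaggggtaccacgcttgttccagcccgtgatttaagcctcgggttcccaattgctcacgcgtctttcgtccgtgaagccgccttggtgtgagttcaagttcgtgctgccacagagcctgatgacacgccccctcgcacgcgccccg
Efemp2 chr19:5473696-5473895, plus strand: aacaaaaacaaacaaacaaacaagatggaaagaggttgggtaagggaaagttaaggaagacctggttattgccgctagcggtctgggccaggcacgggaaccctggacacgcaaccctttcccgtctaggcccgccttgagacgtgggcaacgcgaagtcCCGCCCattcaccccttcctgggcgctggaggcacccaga
The Fbn1 and Efemp2 stretches overlapped a peak in 6 libraries, and the Fbln5 stretch in 1, since the Fbln5 peaks lay mostly inside the gene. Each stretch held 1 GC box, at -185 in Fbn1, -221 in Fbln5 and -90 in Efemp2. A GC box was found in 24.6% of the 32851 RefSeq promoter stretches of the same 200 bases. The AT-rich core ATTAA, bound by ARID3 proteins, was in none of the 3 stretches and in 22.0% of all. On both strands, the AP-1 motif TGANTCA was in none of the 3 and in 5.57% of all. The TEAD motif CATTCC was likewise in none and in 10.7% of all. The TATA box, searched as TATAAA, was in none and in 9.14% of all, so the GC boxes overlapped no other match. The Emilin1 start also lay in a region present in all 6 libraries. Its stretch lies inside the annotated gene and is not printed, overlapped a peak in 6 libraries and held none of the 5 motifs. Later starts inside the genes differed. At the second Fbln5 start the stretch held 1 ATTAA, at -108, and overlapped a peak in 4 libraries. At the 2 later Efemp2 starts the stretches held 1 and 4 GC boxes and overlapped a peak in 0 libraries. A match is a description of letters and not a binding site.

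Peaks were spread very unevenly over the family. Fbn1 held 16 to 20 peaks in each library, while Fbn2 held 0 in every library and Eln at most 1. The Fbn1 window is the longest, and its density was 7.82 peaks per 100 kb. Loxl1 (8.43), Emilin1 (20.3) and Efemp2 (23.3) had higher densities. A region with a peak in all 6 libraries was found in the windows of 8 of the 10 genes, against 62.4% of all protein-coding genes. A gene-end peak in all 6 libraries was found at 6 of the 10, Fbn1, Lox, Loxl1, Fbln5, Efemp2 and Emilin1, against 44% of protein-coding genes. The median density was 6.20 peaks per 100 kb over the 10 windows and 3.19 over all protein-coding genes. Of the 67 regions, 30 had a peak in all 6 libraries (44.8%; 39.2% of the 56697 regions in windows of protein-coding genes), 14 in 2 to 5 and 23 in 1. Peaks called in every list tend to be strong, so the shared regions are set beside shared regions of all protein-coding windows. Ranked by −log10 q within its list, the median peak of a shared region stood at percentile 82.0 in the 10 windows and 70.5 in all. For regions in 2 to 5 libraries it was 28.2 and 26.2, and for regions in 1 library 14.8 and 10.3. Of the 30 shared regions, 15 lay in the Fbn1 window and 6 within 1 kb of an end of another protein-coding gene. The percentile of 82.0 is therefore not an average over the 10 genes.

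**Figure D1:**
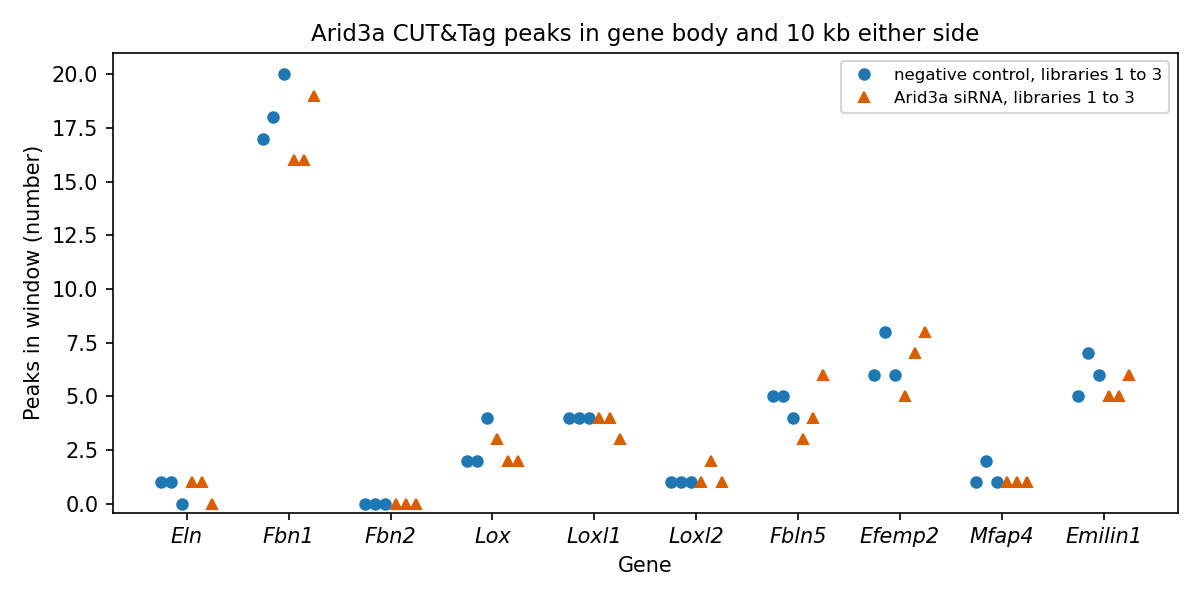
Number of peaks in each gene's window (y axis) for the 10 genes (x axis). Circles are the 3 negative control libraries and triangles the 3 Arid3a siRNA libraries, each in the order 1 to 3. Fbn1 holds 16 to 20 peaks per library, Fbn2 holds 0, and in no gene do the groups separate.

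Eln, which encodes tropoelastin, the fibre's core protein, lies at chr5:134702595-134747368 and had no region shared by more than 2 libraries. One region inside the gene, chr5:134704274-134704530, had a peak in NC library 2 alone, with a fold of 4.10 over the local background. Another, chr5:134695320-134695624, had a peak in NC library 1 alone, with a fold of 5.38. The third, chr5:134748208-134748627, has its summit 1034 bp beyond the right end of the gene and had a peak in siRNA libraries 1 and 2, with folds of 5.06 and 3.88. The peak of siRNA library 1 reached within 1 kb of the end and was the only gene-end peak of Eln. All 3 were weak, at percentiles of −log10 q between 5.36 and 34.0 of their lists. The window's density of 1.03 peaks per 100 kb was above that of 31.2% of protein-coding genes.

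Fbn1 encodes fibrillin-1, the main microfibril protein, mutated in Marfan syndrome. It lies on the minus strand at chr2:125300594-125506485, and no other protein-coding gene is in its window. The window held 26 regions, of which 15 had a peak in every library. Of these, 12 lay beyond the midpoint of the gene, between 137723 and 213758 bp downstream of the start, and 1 lay over the start itself. The other 2 lay at 51519 and 68005 bp. The remaining 11 regions had a peak in 1 to 3 libraries, 8 of them in 1.

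The region over the Fbn1 start, chr2:125505488-125507000, overlaps the upstream sequence printed above. Its deposited fold was 9.01, 8.65 and 8.43 in NC libraries 1 to 3 and 7.996, 10.4 and 10.8 in siRNA libraries 1 to 3, with −log10 q from 20.7 to 43.8. The siRNA libraries lay on both sides of the NC libraries. The highest-ranked Fbn1 region was not at the start but near the other end of the gene, chr2:125303861-125304357. It had folds of 10.5, 10.9 and 11.2 in the NC and 10.7, 12.3 and 10.2 in the siRNA libraries, at percentiles 95.6 to 98.2. A region 137723 bp downstream of the start, chr2:125368225-125369356, had folds of 9.66, 9.88 and 9.25 against 9.88, 10.6 and 10.4, so the ranges overlapped.

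**Figure D2:**
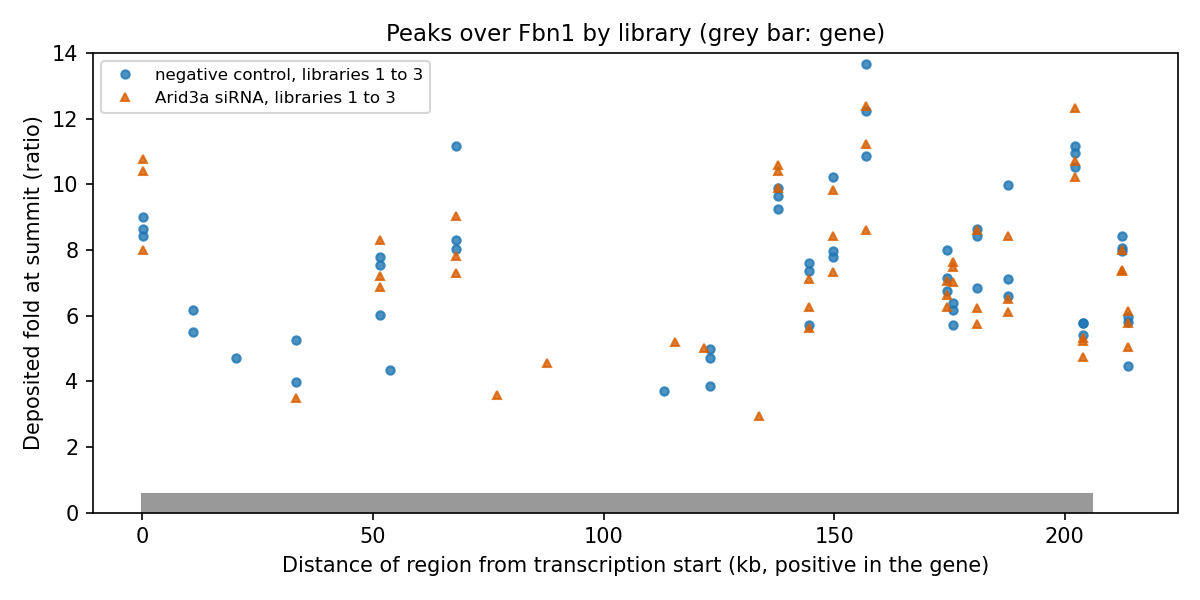
Deposited fold at the summit (y axis, ratio over local background) of every Fbn1 peak region against its distance from the transcription start (x axis, kb, positive into the gene). The grey bar is the gene, circles are negative control and triangles Arid3a siRNA libraries. Of the regions found in all 6 libraries, 12 lie between 137723 and 213758 bp.

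One Fbn1 region separated the groups by presence. At chr2:125383153-125383541, inside the gene and 123162 bp from the start, the NC libraries had folds of 5.00, 4.72 and 3.87 and no siRNA library had a peak. It was weak in the lists that held it, at percentiles 10.3 to 27.8 and −log10 q of 2.97 to 5.40. It was the only one of the 67 regions found in 3 NC and 0 siRNA libraries (1.49% of 67; 0.586% of all regions in gene windows), and 0 showed the reverse (0.333% of all). The region was not one-sided when only peaks with a −log10 q of at least 5 were used, or the same number of peaks from each list.

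Fbn2 encodes fibrillin-2, the fibrillin most used in development. Its window on chromosome 18, over the gene at 58008623 to 58210572, is nearly as long as that of Fbn1 (221950 against 225892 bp) and held 0 peaks in all 6 libraries. A window without a peak in any library was found for 24.5% of protein-coding genes. It was found for 161 of the 1133 genes with a window of at least 200 kb (14.2%).

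Lox encodes lysyl oxidase, the founding enzyme of elastin and collagen crosslinking. It lies on chromosome 18 at 52516060 to 52529867 and had 2 regions in all 6 libraries. The region over its right end, 52528251 to 52530163, had folds of 8.02, 7.77 and 7.21 in the NC and 7.31, 8.59 and 8.04 in the siRNA libraries. The other, 52535375 to 52536016, with its summit 5773 bp beyond the right end, had the highest folds of any region in the 10 windows. They were 14.3, 14.1 and 14.3 in the NC libraries against 13.9, 15.5 and 14.5, at percentiles 97.6 to 98.3. In both regions the ranges of the groups overlapped. The window also held 3 regions with a peak in 1 library each.

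Loxl1, a lysyl oxidase needed for elastic fibre upkeep in adult tissue, lies at chr9:58287723-58313212 and had 8 regions. Of these, 2 were shared by all 6 libraries. The one inside the gene, chr9:58299220-58299931, had folds of 8.89, 8.52 and 8.38 against 8.55, 9.78 and 8.33. The one over the right end, chr9:58312731-58313497, had folds of 4.94, 6.17 and 5.43 against 4.50, 4.88 and 7.54, so the siRNA libraries spanned the whole NC range. A weak region at chr9:58283366-58284015, outside the gene, had folds of 3.83, 4.57 and 3.76 in the NC libraries and 4.31 in siRNA library 1, with no peak in siRNA libraries 2 and 3.

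Loxl2, a lysyl oxidase best known for collagen IV crosslinking, lies at chr14:69608692-69695834 and had a single region and no gene-end peak in any library. Another protein-coding gene, R3hcc1, reaches into the window, but the region was neither inside it nor within 1 kb of its ends. The region, chr14:69691580-69693088 inside Loxl2, was weak in every list (percentiles 15.9 to 36.9). Its folds were 4.62, 5.00 and 4.33 in the NC and 4.21, 5.18 and 4.58 in the siRNA libraries and overlapped. Its covered length did not overlap, at 1261, 1385 and 1507 bp in the NC against 502, 689 and 752 bp in the siRNA libraries.

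Fbln5 encodes fibulin-5, which tethers elastin to microfibrils, and lies on the minus strand at chr12:101746565-101819119. The region over its start, chr12:101818663-101819236, reaches into the printed stretch. Its folds were 9.77, 8.84 and 7.25 in the NC and 7.00, 9.03 and 10.4 in the siRNA libraries, with −log10 q from 10.9 to 22.5. The higher-ranked region was 56712 bp into the gene, chr12:101761965-101763355, with folds of 8.51, 9.57 and 9.22 against 9.70, 9.21 and 8.84. In both regions the groups overlapped. A nearby weaker region, chr12:101766678-101767616, was absent from siRNA library 1 alone, with folds of 2.99 to 4.18 elsewhere.

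Efemp2 encodes fibulin-4, which brings lysyl oxidase to tropoelastin, and lies on the plus strand at chr19:5473946-5482520 among Fibp, Ctsw, Mus81 and Cfl1. Its window had a density of 23.3 peaks per 100 kb, above that of 99.8% of protein-coding genes. The 3 strongest shared regions lay within 1 kb of an end of Mus81 or Cfl1 and not at Efemp2. The region over the first Efemp2 start, chr19:5473385-5474335, was weaker, with folds of 3.67, 3.76 and 2.84 in the NC and 4.74, 3.93 and 4.14 in the siRNA libraries. Every siRNA library lay above every NC library there, though the centred fragment difference was 0.27 ± 0.19 on the log2 scale (SE; limma adjusted p = 0.616). The summits compared in that region were spread over 501 bp. A second region, chr19:5474713-5475567, over a later RefSeq start of the gene, had folds of 3.84, 3.78 and 3.89 against no peak, 2.91 and 3.65. The region at chr19:5480013-5480676 had folds of 4.38, 6.70 and 4.91 against no peak, 3.67 and 5.71. The library without a peak was siRNA library 1 in both, which had the fewest peaks and the lowest background.

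Mfap4, a microfibril-associated glycoprotein that binds elastin and fibrillin, lies at chr11:61485431-61488708. It had no peak over the gene or its ends in any library. A single-library peak lay outside the left end at chr11:61481466-61481692, with a fold of 3.73 in NC library 2. The only shared region in the window, chr11:61493728-61494836, lies at an end of the neighbouring gene Mapk7. Its folds were 13.9, 12.7 and 12.3 in the NC and 13.7, 12.6 and 12.9 in the siRNA libraries, with the groups overlapping.

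Emilin1 encodes an elastin-associated glycoprotein of the fibre surface and lies on the plus strand at chr5:30913387-30921279, close to Ost4, Agbl5 and Khk. The region over its start, chr5:30912887-30913874, had folds of 4.37, 3.98 and 4.70 against 4.37, 5.50 and 4.57. The ranges overlapped. The strongest region in the window, chr5:30907361-30909058, lies at the ends of Agbl5 and Ost4, with folds of 7.50, 8.92 and 7.53 against 7.56, 8.63 and 9.09. Inside the gene a weak region, chr5:30915639-30916249, had folds of 2.79, 2.59 and 2.81 in the NC libraries and 2.95 in siRNA library 3 alone. At the right end, chr5:30921200-30921880, also within 1 kb of Khk, the folds were 4.32, 6.69 and 5.56 against 4.76, 2.90 and 6.03, and overlapped. Of the 30 shared regions over the family, 6 lay within 1 kb of the end of another protein-coding gene.

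**Figure D3:**
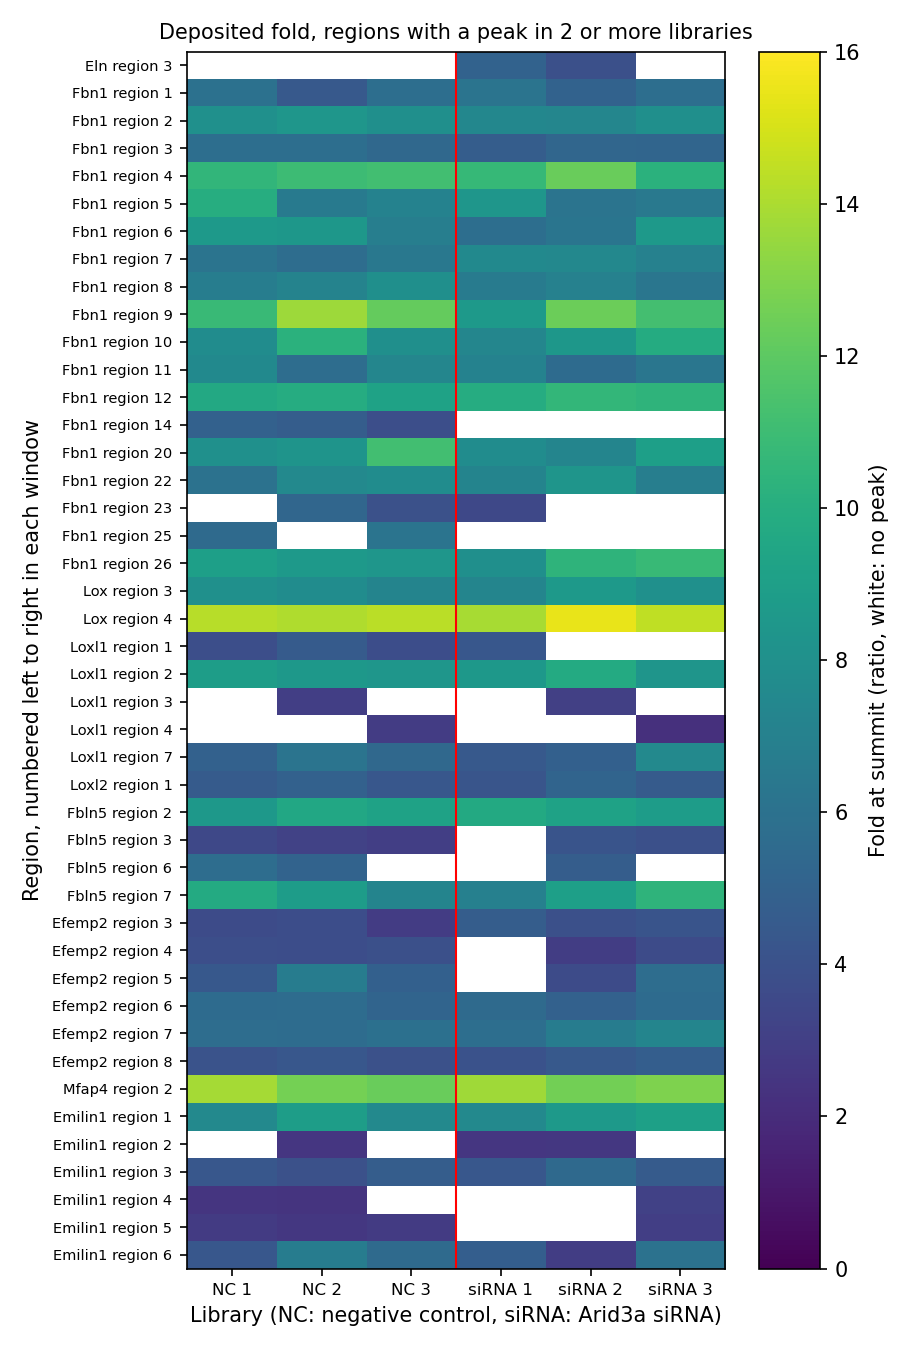
Deposited fold at the summit (colour, ratio) for the 44 regions with a peak in at least 2 libraries (rows) in each library (columns, negative control left of the red line, Arid3a siRNA right). White cells have no peak. The Lox region at 14.3, 14.1, 14.3, 13.9, 15.5 and 14.5 is the brightest row, and rows with white cells have folds of at most 6.70.

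The labelled groups were then compared over the family as a whole. The 10 windows together held 42, 48 and 46 peaks in the NC libraries (45.3 ± 3.06, SD, n = 3) and 39, 42 and 46 in the siRNA libraries (42.3 ± 3.51, SD, n = 3). These ranges overlapped (two-sided exact permutation p = 0.5 over the 20 assignments, of which the smallest possible is 0.1). No member had more peaks in every library of one group than in every library of the other, which was the case for 1.16% (NC higher) and 0.836% (siRNA higher) of protein-coding genes.

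Covered length did separate. Peaks covered 29645, 28205 and 28921 bp of the windows in the NC libraries (28924 ± 720, SD, n = 3) and 21697, 22562 and 25044 bp in the siRNA libraries (23101 ± 1737, SD, n = 3; two-sided exact permutation p = 0.1, the smallest possible). Over the whole genome, peaks also covered more in every NC library (27.4 to 27.7 Mb) than in any siRNA library (22.5 to 25.4 Mb), beside the higher background there. Gene-end peaks at the markers Cnn1, Myocd and Col14a1 were also in more NC than siRNA libraries, and their part in this was not tested. Covered length was larger in every NC library for 5 of the 10 genes, Fbn1, Loxl1, Loxl2, Efemp2 and Emilin1, against 13.6% of protein-coding genes, and in every siRNA library for 0 (0.941%). Fbn1 had 11942, 10630 and 11653 bp against 9725, 9237 and 10423 bp. Emilin1 had 4065, 3470 and 3323 bp against 2703, 2474 and 2880 bp. Taken as a share of each library's total covered length, only Loxl2 and Emilin1 of the 10 still separated with NC higher (3.62% of protein-coding genes), and 0 with siRNA higher (6.05%). As such a share, the total over the 10 windows was still larger in every NC library than in any siRNA library.

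**Figure D4:**
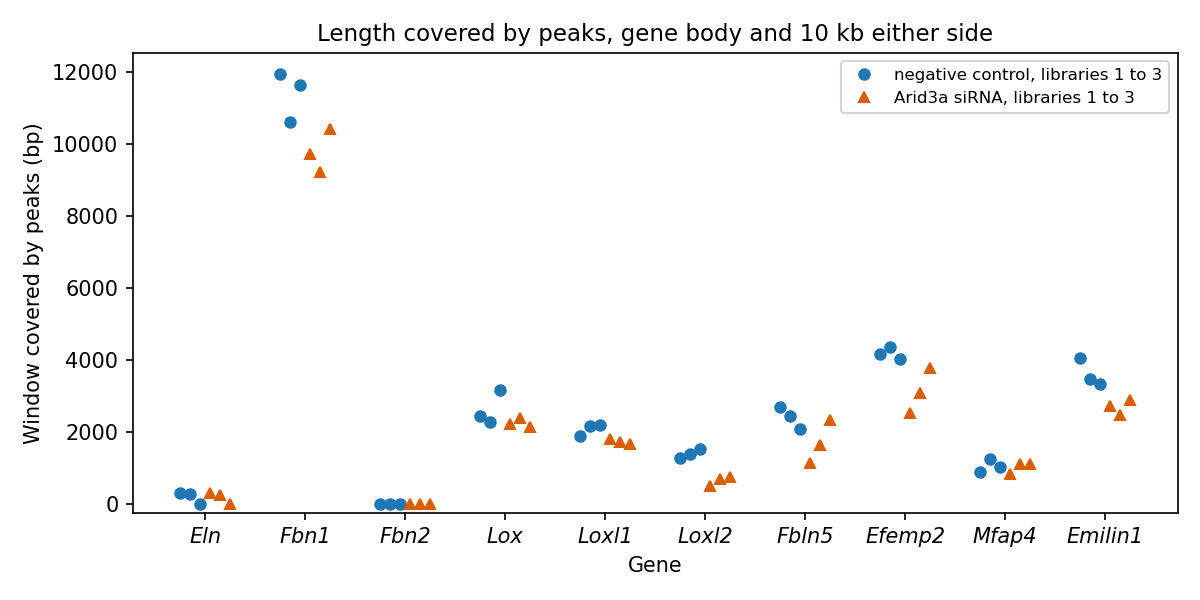
Base pairs of each gene's window covered by peaks (y axis) for the 10 genes (x axis), circles for the 3 negative control and triangles for the 3 Arid3a siRNA libraries. Fbn1 runs from 10630 to 11942 bp in the control and from 9237 to 10423 bp in the siRNA libraries, and Loxl2 from 1261 to 1507 bp against 502 to 752 bp.

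The deposited fold is relative to each library's own background, with 1 added to both parts of the ratio, so it is not free of coverage. By fold, 1 of the 30 shared regions was higher in every NC library (6.12% of 29602 shared regions in the series). Another 2 were higher in every siRNA library (6.84%). The first was a Fbn1 region at chr2:125302120-125303015, with 5.77, 5.79 and 5.42 against 4.74, 5.30 and 5.24. The other pair were the Efemp2 start, given above, and a Fbn1 region at chr2:125330446-125331002, with 6.17, 5.72 and 6.39 against 7.62, 7.48 and 7.01. By covered length, 9 of the 30 were larger in every NC library (17.3% of all) and 0 in every siRNA library (1.29%).

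Summit fragments, solved from the peak caller's fold and p-value, were compared on a log2 scale after centring each library on its median over shared regions. Only regions with a peak in every library were tested, so a region that lost its peak in any library could not be called. In limma, 0 of the 30 shared regions in the windows passed an adjusted p of 0.05 (Benjamini-Hochberg over 29602 regions), and 2 had an unadjusted p under 0.05 (11.2% of all regions had). Over the series 24 regions were higher (0.0811%) and 36 lower (0.122%) in the siRNA libraries. Scaling by background in place of centring shifted the median of all regions to 0.11 and the calls to 121 higher and 11 lower, with 0 in the windows again. The smallest adjusted p among the 30 was 0.362, for the Fbn1 region at chr2:125293749-125294477. It held 89, 89 and 82 fragments in the NC and 53, 56 and 65 in the siRNA libraries before centring. The centred log2 difference was -0.29 ± 0.12 (SE moderated by limma, as are the others here, n = 3 against 3). The other with a small unadjusted p was the Fbn1 region at chr2:125348974-125349911, with 55, 62 and 49 against 28, 41 and 38 fragments and a difference of -0.34 ± 0.15 (centred log2, SE; limma adjusted p = 0.381).

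Of the 15 shared Fbn1 regions, 13 had a centred level that was lower in the siRNA libraries (49.7% of all regions), with a median difference of -0.17 on the log2 scale, but with scaling by background only 9 of 15 did (31.0% of all), with a median of -0.07. None of the 15 passed the test. Over all 30 regions the median difference was -0.08 against 0.00 for all regions, and with scaling by background 0.03 against 0.11. The 15 Fbn1 regions share a locus and the same libraries and are not independent. The 2 exceptions were the start region (0.08 ± 0.15, SE) and the region with higher fold in the siRNA libraries (0.14 ± 0.18, SE). Outside Fbn1 the differences ran from -0.33 ± 0.23 (SE, the right end of Emilin1) to 0.27 ± 0.19 (the Efemp2 start). The Lox regions differed by 0.00 ± 0.13 and 0.07 ± 0.11 (SE), the Fbln5 start by 0.07 ± 0.19 and the Emilin1 start by 0.00 ± 0.13. The 95% intervals of the 30 differences lay within -0.80 and 0.65, with the lowest bound at the right end of Emilin1 and the highest at the Efemp2 start. At the Lox region beyond the right end the interval was -0.16 to 0.29. For the Fbn1 pair with an unadjusted p under 0.05 the intervals, which are not adjusted for the number of regions, were -0.54 to -0.04 and -0.65 to -0.04.

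**Figure D5:**
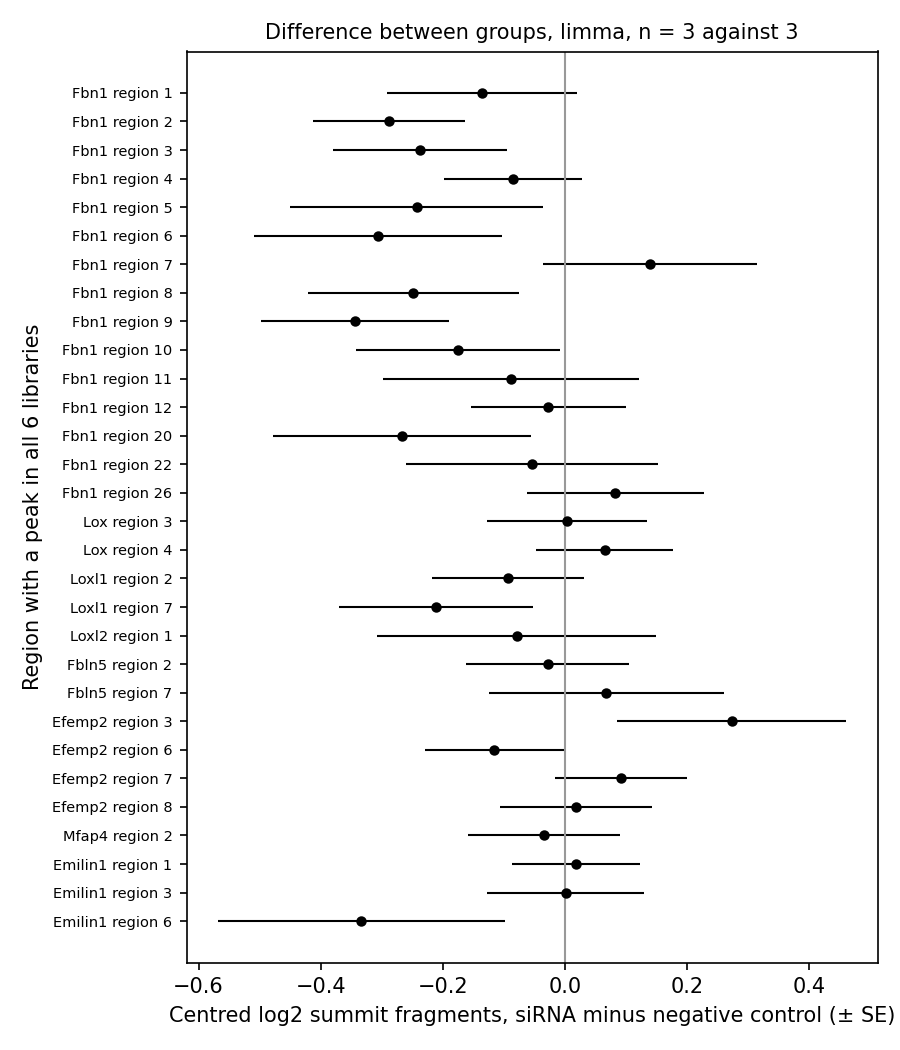
Difference of centred log2 summit fragments, Arid3a siRNA minus negative control (x axis, bars are limma's moderated SE, n = 3 against 3), for the 30 regions with a peak in all 6 libraries (y axis). Of the Fbn1 regions 13 of 15 lie left of 0, and none of the 30 passed limma's adjusted threshold of 0.05.

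Summit positions were also compared across libraries. The summits of the 6 libraries lay within 100 bp of each other in 13 of the 30 shared regions (43.3%), against 29.6% of all shared regions, and the median spread was 107.5 bp against 155 bp. In the Loxl2 region the summits were spread over 910 bp, and in the Fbn1 region at chr2:125368225-125369356 over 7 bp.

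Another 30 genes of elastic fibre assembly and disease were described in the same way. A shared region was present at 27 of 30 (62.4% of protein-coding genes). At 20 of 30 every library had a gene-end peak (44% of protein-coding genes). All 7 other cutis laxa genes, including Pycr1, Aldh18a1 and the proton pump subunit Atp6v0a2, had a gene-end peak in every library, as had all 4 genes of crosslinking supply (Loxl3, Loxl4, the copper transporter Atp7a and the procollagen protease Bmp1). Emilin3 and Mmrn1 had no peak in any library. A one-sided region was found at 4 genes. In NC libraries only these were Ltbp4, which binds fibulin-5 (chr7:27335841-27336516, folds 3.03 to 4.02), Efemp1 (chr11:28907816-28908346, folds 3.51 to 3.92) and Gorab (chr1:163391298-163391825, folds 3.89 to 6.13). In siRNA libraries only it was Thsd4, a fibrillin-binding ADAMTS-like protein (chr9:60170998-60171309, folds 4.07 to 6.52). These were 3 and 1 of the 264 regions in the list's windows (0.586% and 0.333% of all, as above), and all were weak, at percentiles 6.03 to 45.5 of their lists. Peak number was higher in every NC library at Ltbp1 (27, 27 and 27 against 23, 26 and 26) and Ltbp4 (6, 5 and 6 against 3, 4 and 3), 2 of 30 (1.16% of protein-coding genes), and higher in every siRNA library at 0 (0.836%). Of the 99 shared regions of the list, limma called 0 at an adjusted p of 0.05.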

How the data were processed

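CUT&Tag for Arid3a was measured in 6 libraries, 3 per group. The submitters' processing notes name Bowtie2, Picard and MACS2 and the mm10 build. Their versions are not stated there. The authors deposited, per peak, an integer score, a summit fold (a ratio over that library's local background), −log10 p, −log10 q and the summit offset. Peaks were called per library. Fold and −log10 q belong to single peaks, as the authors gave them, and −log10 q was ranked only within a list.

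From these, regions were formed by merging peaks of 6 lists that shared at least 1 bp. Where a list had several peaks in a region, the peak with the most summit fragments gave its fold, −log10 q and summit. Whole summit fragments and the background were solved from fold and p-value (pseudocount 1, relative tolerance 0.002) for 100% of peaks. The most frequent background of a list stands in for depth, and the median summit held 16 to 20 fragments, which sets a large counting error for most peaks. limma 3.58.1 (R 4.3.3, variance trend over the mean level) was fitted to log2(fragments + 1) at all 29602 regions in 6 libraries. Its SE, intervals and p-values are moderated, so each region's own spread is pulled toward the trend over all regions. The fit was tested on simulated counts for this comparison and these 29602 regions. It recovered 30% of 1.5-fold, 71.4% of 2-fold and 100% of 4-fold changes at regions of at least 20 fragments, and called 4 unchanged regions. The simulated counts held counting error alone, and no region was dropped for losing a peak. These rates therefore need not hold for the real libraries. Single values per library were tested by a two-sided exact permutation test.

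siRNA libraries 2 and 3 had a mean chi-square of 0.762 over 5852 high regions, under that of their pairs with library 1 (1.15 and 1.12). Their peaks overlapped by 57.0% (Jaccard index), near the 56.2 and 56.3% of those pairs, and NC pairs had chi-squares of 0.756 to 0.826. Counting error alone would give a mean near 1, and this pair and the NC pairs lay below it, for a reason not tested. siRNA libraries 2 and 3 were kept as separate samples. Their mean was taken as 1 sample among the alternatives for peak number and covered length only. The NC libraries were not averaged. All 10 members, named by the gene list, are described. Regions are given in full where they hold the start, are among the 2 highest-ranked of a gene, or have a peak in 3 libraries of a group and at most 1 of the other. Other regions, such as those compared by fold or p-value, were chosen after their values were seen. The members and lists were chosen with earlier results of these data known. Gene coordinates come from RefSeq GRCm38.p6, which has strand here only for genes in its promoter table, and promoter sequence for Eln, Fbn2, Lox, Loxl1, Loxl2 and Mfap4 is not used here. Alternatives were other windows, a −log10 q of at least 5, equal list lengths, 50% coverage of a region, other scalings and pseudocounts, a replicate block and leaving out each library.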

Additional observations from a re-analysis of the deposited data

Results flagged for a closer look

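A column outside the comparisons, the peak names, went against the sample labels. In 6 of 6 lists the names carry the other group with the same number, so that the list labelled negative control 1 holds names of siRNA 1. If the names were right, the Fbn1 region found in 3 negative control libraries would belong to the siRNA libraries, and the larger covered length over Fbn1, Loxl1, Loxl2, Efemp2 and Emilin1 would too. The peaks shared by all 6 libraries, and the absence of peaks over Fbn2, would stay as they are.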

How the results depend on the processing

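Of 113 values under other settings, 37 were counts of 0 that stayed 0, which say little about stability. Of the others 48 kept their direction or stayed within 1.5 times and 28 moved. Covered length was larger in the NC libraries in every alternative run, and the 30 shared regions became 22 to 33. The NC-only region count of 1 became 4 when a peak had to cover 50% of a region, 0 with a −log10 q of at least 5 and 0 with equal list lengths. It was 1 to 2 without single libraries (2 without NC library 2, siRNA library 1 or siRNA library 3), and the siRNA-only count of 0 was 0 to 1 (1 without siRNA library 3). The cause was not tested. For summit fragments over the series, 24 higher and 36 lower regions became 41 and 69 with the replicate block, 121 and 11 with background scaling, 38 and 60 at 20 or more fragments, and 0 and 0 without a variance trend. With a pseudocount of 5 it was 33 and 72. In the simulation, the fit without a variance trend recovered only 1.43% of 1.5-fold, 15.7% of 2-fold and 73.3% of 4-fold changes. Without single libraries the counts were 5 to 103 higher and 3 to 233 lower, the highest without siRNA library 1. Lower calls outnumbered higher ones at first, and this turned with background scaling and without NC library 2 (8 and 3) or NC library 3 (6 and 5). In the 10 windows the calls were 0 in each of these. Fbn1 had 12 to 13 of 15 regions lower without single libraries. Leaving the variance trend out and the count of lower Fbn1 regions were chosen after seeing the data. Same-numbered libraries did not deviate together (correlations 0.042, 0.033 and -0.023), so the numbers were not taken as pairs. With the replicate block the exact p for covered length was 0.25, the smallest that 3 pairs allow, and that for peak number 0.5. The effect of depth on which weak regions were called was not tested.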
